A study of Mus musculus with 2 samples.

Results

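The 9 genes described here encode homeobox transcription factors that are recurrent partners in leukaemia: the HOX factors Hoxa5, Hoxa7, Hoxa9, Hoxa10 and Hoxb4, and the TALE factors Meis1, Pbx2, Pbx3 and Pknox1. They were chosen by name, with earlier results of these data known, and each was found once by its Ensembl ID among the 55487 genes of the count table. HOX proteins bind DNA weakly on their own and gain affinity and specificity by pairing with TALE proteins, a class of homeodomain proteins set apart by extra residues in a loop of the homeodomain. In blood, HOX genes of the A cluster and Meis1 are active in stem and early progenitor cells and are turned down as cells mature, and sustained co-expression of HOXA9 and MEIS1 drives many acute myeloid leukaemias.

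RNA was sequenced from 2 cultures, 1 for each form of EVI1, which Mecom encodes and which binds DNA through zinc fingers. The EVI1+18 culture was transduced with the retroviral vector pMYs-IG_3xHA-EVI1+18, which carries a form made by aberrant splicing of EVI1, and the EVI1-WT culture with pMYs-IG_3xHA-EVI1-WT, which carries the wild-type form. Both forms were tagged and overexpressed from a retrovirus in lineage-negative bone marrow cells of C57BL/6 mice, which were sorted for green fluorescence and grown in a semi-solid medium for about 3 weeks. The labels state neither the age and number of the mice nor whether marrow was pooled, and no empty-vector culture was analysed here. The comparison asks how the aberrant form differs from the wild-type form in its effect on transcription, and what is described is which HOX and TALE factors were present in each culture and at what level.

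The EVI1+18 library held 20981903 counts and the EVI1-WT library 20480447. Mecom itself had 4481 counts in EVI1+18 and 3612 in EVI1-WT, which do not separate vector from endogenous transcripts. The Y-linked gene Eif2s3y had 1 count in EVI1+18 and 2002 in EVI1-WT. Other Y-linked genes were similar, with 1626 and 1545 for Ddx3y, 590 and 614 for Kdm5d, and 498 and 584 for Uty. The reason was not tested, and differences between the starting cells of the cultures cannot be told apart from those between vectors. Counts were scaled for library size with TMM and are given as scaled CPM, a count relative to the scaled size of its library. With 1 library per group no difference has a replicate check and no test was run: each ratio of EVI1+18 over EVI1-WT carries a 95% exact (Clopper-Pearson) counting interval, which covers counting error only and compares these libraries, not the vectors. A gene that reached 1 scaled CPM in either library counts as tested, and is called 2-fold apart when its whole interval lies above 2 or below 1/2. A gene with at most 3 counts in each library, the most that a count of 0 allows, is called silent. In such bulk cultures, fewer cells of a type and less RNA per cell cannot be told apart.

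All 5 HOX factors were silent in both libraries, and all 4 TALE factors were expressed. Meis1 alone was called 2-fold apart, 30.6-fold higher in EVI1+18, while the ratios of Pbx2, Pbx3 and Pknox1 lay between 0.763 and 1.36. The share of tested genes called higher in EVI1+18 was 5.05%, and 5.10% were called lower, 10.1% in either direction. Of the 4 factors tested, 1 was called higher and 0 lower. Among 21974 protein-coding genes, 39.6% were silent in both libraries by the same rule and 31.1% had 0 counts in both.

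**Figure D1:**
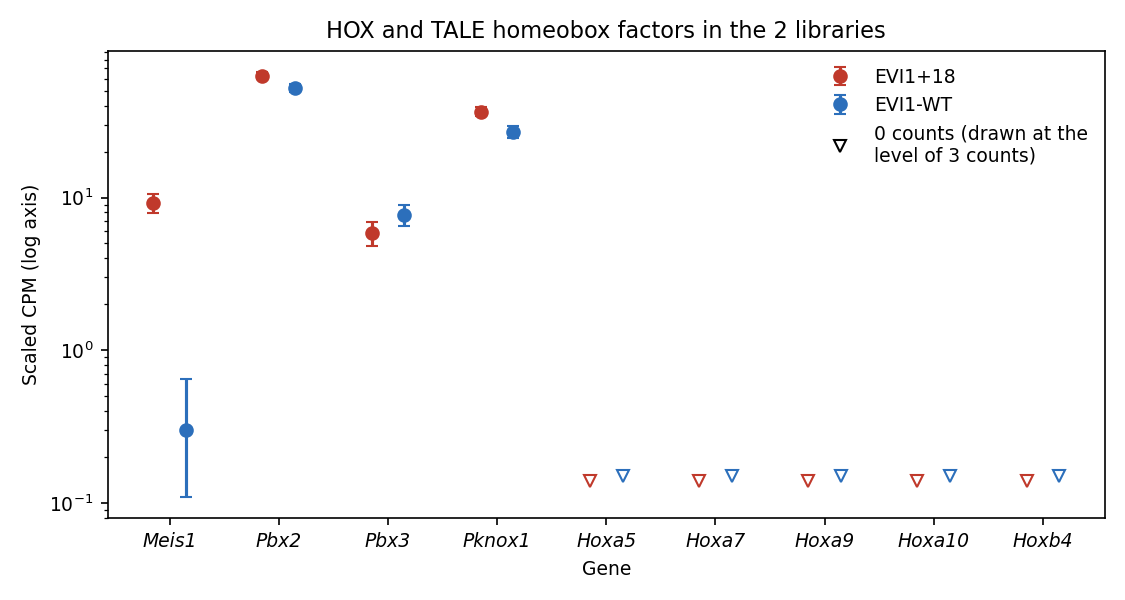
Scaled CPM (log axis) of the 9 factors in the EVI1+18 library (red, left of each pair) and the EVI1-WT library (blue, right); bars are 95% exact Poisson intervals of the count, and open triangles mark genes with 0 counts, drawn at the level of 3 counts. Meis1 stands at 9.18 scaled CPM in EVI1+18 and 0.300 in EVI1-WT, whereas the 2 values of each other TALE factor lie close together and the 5 HOX factors have no counts.

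Hoxa9, the factor most often raised in HOX-driven leukaemia, had 0 counts in EVI1+18 and 0 in EVI1-WT. The gene lies on chromosome 6 of GRCm38 (52223100 to 52231089, minus strand), and over its 5580 exon bases 3 counts, the one-sided 95% limit for a count of 0, correspond to 0.0251 scaled CPM per kilobase of exon (scaled RPKM) in EVI1+18 and 0.0268 in EVI1-WT. The two-sided 95% Poisson interval used for the other levels ends at 0.0308 in EVI1+18 and 0.0330 in EVI1-WT. Its neighbour Hoxa10, which can also transform marrow cells when overexpressed, had 0 counts in EVI1+18 and 0 in EVI1-WT (chromosome 6, 52231197 to 52240854). Hoxa7 (52214491 to 52221854), often co-expressed with Hoxa9 in leukaemias with rearranged MLL, also had 0 counts in each library. Hoxa5 (52201754 to 52204587), of the same cluster, had 0 counts in each as well. Hoxb4, known for expanding mouse stem cells when overexpressed, lies on chromosome 11 (96318267 to 96321638, plus strand) and had 0 counts in both libraries. The level that 3 counts would give was highest for Hoxa5, the shortest of the 5, at 0.0745 scaled RPKM in EVI1+18 and 0.0798 in EVI1-WT.

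The zeros extended over all 4 HOX clusters. Of the 39 HOX genes of the mouse, 35 had 0 counts in both libraries and all 39 were silent, with 5 counts in EVI1+18 and 1 in EVI1-WT in all. Every count fell in the HoxB cluster. Hoxb8 had 3 counts in EVI1+18 and 0 in EVI1-WT. Hoxb6 had 1 and 0, Hoxb7 1 and 0, and Hoxb9 0 and 1, in the same order of libraries. These values lie at or under the limit of 3 counts, so no difference between the libraries was detectable at this depth. Of the 34 HOX genes outside the 5 described factors, 30 had 0 counts in both libraries.

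All 14 noncoding RNAs of the clusters on a list of known ones had 0 counts in both libraries, among them Hotairm1, Hottip, which lies beyond Hoxa13 and is known to keep distal HoxA genes active, and the precursor of miR-196b, which lies inside Hoxa9. Mature miRNAs are too short to be read from such libraries, so the last value concerns the precursor only. Across the HoxA cluster on chromosome 6, all 31 annotated genes had 0 counts in both libraries, as had all 16 of HoxC and all 19 of HoxD. Of the 19 annotated genes across HoxB, 14 had 0 counts in both, and the cluster held 13 counts in EVI1+18 and 7 in EVI1-WT. Besides the HOX genes above, these came from the processed pseudogene Gm11539, whose reads may belong to its parent gene, with 8 counts in EVI1+18 and 6 in EVI1-WT. Of all 55487 genes of the count table, 21037 had a count in EVI1+18 and 21013 in EVI1-WT. Most annotated genes thus had 0 counts in a library, so zeros at noncoding and other annotated genes do not by themselves set the clusters apart. The nearest protein-coding genes with more than 3 counts in a library stood on either side of the HoxA cluster. Skap2, a signalling adaptor 143 kb away, had 115 scaled CPM in EVI1+18 and 82.4 in EVI1-WT. Hibadh, a mitochondrial enzyme of valine breakdown 285 kb away on the other side, had 66.5 in EVI1+18 and 86.6 in EVI1-WT. The nearest such genes beside HoxB were unlike. Atp5g1, 119 kb away, had 148 scaled CPM in EVI1+18 and 124 in EVI1-WT, but Skap1, 96.3 kb away on the other side, had 0 counts in EVI1+18 and 5 in EVI1-WT. Those beside HoxC and HoxD all had at least 10.5 scaled CPM in both libraries.

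Reads at these loci could be lost where genes overlap or share sequence, and this was checked in the annotation for the 5 silent factors. Hoxa5, Hoxa10 and Hoxb4 share no exon base with another annotated gene. Hoxa9 has 98.5% of its exon bases to itself, the rest being the miR-196b precursor. Hoxa7 has 79.6% to itself and shares the remainder with the antisense RNA Hoxaas3, which was itself at 0 counts. At least 99.4% of the 50-base words in the transcripts of each of the 5 factors occur in no annotated transcript of another gene. Words were compared in the direction of transcription only, so antisense overlap does not enter this share.

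Meis1 encodes the TALE factor that cooperates with HOXA9 in leukaemia and is needed for stem cell maintenance and for platelet formation in mice. It lies on chromosome 11 (18879817 to 19018985, minus strand) and had 197 counts in EVI1+18 and 6 in EVI1-WT. The ratio was 30.6 (13.8 to 84.5). Of 666 genes called higher in EVI1+18, 69 had a larger lower bound. Meis1 was thus present in EVI1+18 and close to the limit of 3 counts in EVI1-WT.

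The Meis1 promoter is shown beside that of Hoxa9 because Meis1 was the only factor called apart and Hoxa9, its usual partner, was at 0. Both are RefSeq windows on GRCm38.p6 from 250 bases before to 50 after the transcription start, on the minus strand, for Meis1 at chr11:19018920-19019219 and for Hoxa9 at chr6:52227321-52227620. Capitals mark matches to the ETS core CCGGAA on either strand.
Meis1: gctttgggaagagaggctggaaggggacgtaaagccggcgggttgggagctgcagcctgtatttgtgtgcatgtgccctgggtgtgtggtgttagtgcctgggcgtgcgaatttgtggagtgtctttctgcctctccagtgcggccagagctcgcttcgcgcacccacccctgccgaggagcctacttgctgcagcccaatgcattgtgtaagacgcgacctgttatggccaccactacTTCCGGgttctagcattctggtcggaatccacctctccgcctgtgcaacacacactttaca
Hoxa9: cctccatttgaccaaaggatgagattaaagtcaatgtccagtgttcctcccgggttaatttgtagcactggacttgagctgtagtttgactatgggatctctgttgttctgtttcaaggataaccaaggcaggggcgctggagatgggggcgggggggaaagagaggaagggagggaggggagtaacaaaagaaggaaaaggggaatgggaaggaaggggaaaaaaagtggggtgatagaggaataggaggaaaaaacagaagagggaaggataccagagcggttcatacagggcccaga

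The Meis1 window holds 1 ETS core, on the reverse strand, and the Hoxa9 window none. Of the other windows searched, 1 of those listed for Hoxa10, which was at 0 counts, also holds 1, and 14.9% of 32851 promoter windows of this length do. ETS factors are known regulators of Meis1 in blood cells. A search of both strands for TGACAG, the core bound by MEIS and PKNOX proteins, found no match in the 8 windows of the 7 factors with a listed promoter, and 19.2% of all windows hold it. The words GACAAGATA and GAAGATGAG, known cores of the 2 DNA-binding zinc finger domains of EVI1, were also absent from those 8 windows, and 0.119% and 0.399% of all windows hold them. Also absent were the PBX-HOX word TGATNNAT, where N is any base, and the GATA word AGATAA, which 8.85% and 11.2% of all windows hold. The ETS core was thus the only word searched that had a match in these windows. The Meis1 window has 15 CpG dinucleotides and the Hoxa9 window 4, against a median of 7 over all windows.

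Some Meis1 reads could belong to transcripts that overlap it. Of its exon bases, 81.7% are its own, and the rest overlap Gm37818 on the same strand, which had 9 counts in EVI1+18 and 0 in EVI1-WT, and the antisense RNA Gm16140, at 0 in both. The nearest expressed protein-coding genes on either side showed no such gap. Etaa1, a replication stress factor 926 kb away, had 18.8 scaled CPM in EVI1+18 and 18.5 in EVI1-WT, a ratio of 1.02 (0.881 to 1.17). Spred2, an inhibitor of RAS signalling 905 kb away on the other side, had 47.0 in EVI1+18 and 39.4 in EVI1-WT, a ratio of 1.19 (1.09 to 1.31).

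Among 1642 tested genes of similar mean level, the 3 whose log2 ratio over the 2 libraries lay nearest to that of Meis1 were Tspo2, Selp and Slc6a20b. Tspo2, a red-cell membrane protein, had 131 counts in EVI1+18 and 3 in EVI1-WT. Selp, the platelet adhesion receptor P-selectin, had 159 in EVI1+18 and 4 in EVI1-WT. Slc6a20b, an amino acid transporter, had 156 in EVI1+18 and 5 in EVI1-WT. The log2 ratio, which here and below has a prior count of 2 added and so understates the change of genes with few counts, was 4.65 for Tspo2, 4.66 for Selp and 4.41 for Slc6a20b, beside 4.55 for Meis1.

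Markers of other cell types stood apart between the libraries together with Meis1. Of 10 megakaryocyte and platelet markers, 7 were 2-fold higher in EVI1+18 and 0 lower, and their summed level was 1941 scaled CPM in EVI1+18 and 737 in EVI1-WT. Single members ranged from 0.0466 to 718 scaled CPM in EVI1+18 and from 0 to 447 in EVI1-WT, and Tubb1 was among those at 0 in EVI1-WT, while the median below is the same with tested genes at 0 set at 3 counts. Of 9 erythroid markers, 8 were 2-fold higher and 0 lower, with sums of 6719 scaled CPM in EVI1+18 and 651 in EVI1-WT. Most of each sum came from the globin genes Hba-a1, with 3495 in EVI1+18 and 323 in EVI1-WT, and Hbb-bs, with 2994 and 309. The median log2 ratio was 3.43 for the erythroid list, 3.41 for the megakaryocyte list and 0.01 for all tested genes. Of all tested genes, 5.05% were called higher in EVI1+18 and 5.10% lower. Of 10 stem and progenitor markers, 2 were 2-fold higher (Slamf1 and Mllt3) and 1 lower (Ly6a), with sums of 514 scaled CPM in EVI1+18 and 907 in EVI1-WT. Gata2, which was not called, took 376 of the sum in EVI1+18 and 769 in EVI1-WT, and the median log2 ratio of the list was of the other sign, at 0.44. Hlf and Fgd5, which are close to restricted to stem cells in marrow, had 0 counts in both libraries. Flt3, a receptor of early lymphoid and myeloid progenitors, had 5 counts in each. The part of these cell types in the Meis1 ratio was not tested.

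Pbx2, a broadly expressed PBX protein that pairs with both HOX and MEIS proteins, had the highest level per length of the 9 factors. It lies on chromosome 17 (34591266 to 34597400, plus strand) and had 1351 counts in EVI1+18 and 1047 in EVI1-WT, or 63.0 scaled CPM in EVI1+18 and 52.3 in EVI1-WT. The ratio of 1.20 (1.11 to 1.31) was beyond counting error but far from 2. Gpsm3 covers 6.24% of its exon bases on the same strand and had 44.2 scaled CPM in EVI1+18 and 60.0 in EVI1-WT.

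Pbx3, a cofactor that stabilises HOXA9 and MEIS1 complexes in leukaemia, went slightly the other way. On chromosome 2 (34171457 to 34373142, minus strand), it had 125 counts in EVI1+18 and 153 in EVI1-WT, or 5.83 scaled CPM in EVI1+18 and 7.64 in EVI1-WT. The ratio was 0.763 (0.597 to 0.972), and with libraries scaled by total counts it was 0.797, with an interval that included equality (0.625 to 1.02).

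Pknox1, also called Prep1, competes with MEIS proteins for PBX partners. It lies on chromosome 17 (31564734 to 31607693, plus strand) and had 784 counts in EVI1+18 and 538 in EVI1-WT, or 36.5 scaled CPM in EVI1+18 and 26.9 in EVI1-WT. The ratio of 1.36 (1.22 to 1.52) was not called.

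**Figure D2:**
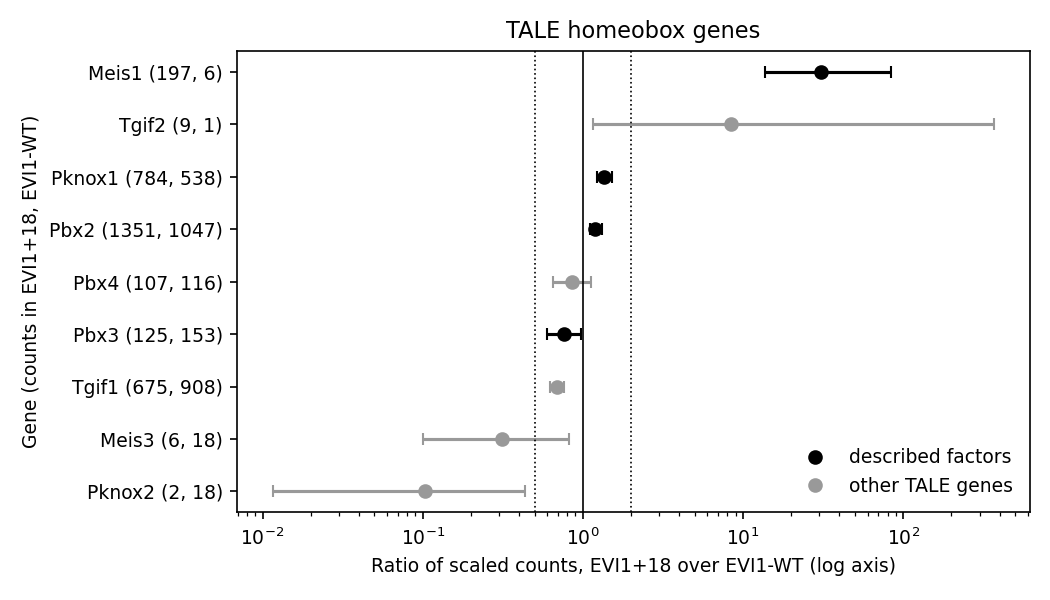
Ratio of scaled counts, EVI1+18 over EVI1-WT (log axis), for the 9 TALE genes with more than 3 counts in a library; bars are 95% counting intervals, the solid line is equality and the dotted lines are 2-fold in either direction, and raw counts stand beside each name. Meis1, at 30.6, is the only gene with an interval above 2, and the intervals of Pbx2, Pbx3, Pbx4, Pknox1 and Tgif1 lie between the dotted lines. The interval of Pknox2 (0.0117 to 0.433) lies below the lower dotted line, and those of Meis3 and Tgif2 each cross a dotted line without reaching equality. Pknox2, Meis3 and Tgif2 had too few counts to be tested.

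Per length of exon, the order of the 4 TALE factors was the same in both libraries, with Pbx2 highest and Meis1 lowest. Pbx2 stood at 17.3 scaled RPKM in EVI1+18 (95% Poisson interval 16.4 to 18.2) and 14.4 in EVI1-WT (13.5 to 15.3). Pknox1 came next, at 5.27 in EVI1+18 (4.91 to 5.65) and 3.87 in EVI1-WT (3.55 to 4.22). Pbx3 followed with 0.954 in EVI1+18 (0.794 to 1.14) and 1.25 in EVI1-WT (1.06 to 1.47). Meis1 had 0.872 in EVI1+18 (0.754 to 1.0) and 0.0284 in EVI1-WT (0.0104 to 0.0619). In EVI1+18 the levels of Pbx3 and Meis1 could not be told apart within counting error, whereas in EVI1-WT their intervals were apart. Lengths from the longest transcript put Pbx3 at 2.04 and Meis1 at 1.22 in EVI1+18, with intervals that no longer overlap, so this tie depends on the gene length used.

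Pbx2 thus made up 53.3% of the summed scaled RPKM of the 18 TALE genes in EVI1+18 and 46.9% in EVI1-WT. The corresponding share of Meis1 was 2.68% in EVI1+18 and 0.0929% in EVI1-WT. Within the MEIS family Meis1 was the main gene in EVI1+18 but not in EVI1-WT, where Meis3 was higher per length. Meis3 had 6 counts in EVI1+18 and 18 in EVI1-WT, or 0.0881 scaled RPKM in EVI1+18 and 0.283 in EVI1-WT. Meis2 was silent, with 3 counts in EVI1+18 and 1 in EVI1-WT. Summed over the family, MEIS counts were 206 in EVI1+18 and 25 in EVI1-WT, a ratio of 7.69 (5.06 to 12.2). The corresponding ratio was 1.12 (1.04 to 1.21) for the 4 PBX genes, 1.32 (1.18 to 1.47) for the 2 PKNOX genes and 0.702 (0.635 to 0.776) for the 2 TGIF genes.

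Of the 14 TALE genes outside the described factors, 9 were silent, 3 were low and 2 were tested, and neither of the 2 was called. Among all protein-coding genes 39.6% were silent, and 10.1% of all tested genes were called, so 0 called of 2 tells little about the family. Pbx4 had 4.99 scaled CPM in EVI1+18 and 5.79 in EVI1-WT, a ratio of 0.861 (0.656 to 1.13). Tgif1, a TALE repressor that acts with SMAD proteins, had 31.5 in EVI1+18 and 45.3 in EVI1-WT, a ratio of 0.694 (0.627 to 0.767). The low genes, under 1 scaled CPM in both libraries, were Meis3, Pknox2 and Tgif2. Pknox2, the paralogue of Pknox1, had 2 counts in EVI1+18 and 18 in EVI1-WT, a ratio of 0.104 (0.0117 to 0.433), below 1/2 but on too few counts to be tested. Tgif2 had 9 counts in EVI1+18 and 1 in EVI1-WT, and 61.6% of its exon bases overlap genes on the opposite strand.

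Most genes known to act on HOX loci were expressed in both cultures. Of 20 activators of HOX transcription, 17 were tested, of which 1 was 2-fold higher, 1 lower and 15 neither, with a median log2 ratio of -0.10, and over all tested genes 10.1% were called. Mllt3, or AF9, a subunit of elongation complexes and a common fusion partner of MLL, had 39.2 scaled CPM in EVI1+18 and 11.3 in EVI1-WT, a ratio of 3.46 (2.98 to 4.02). Mllt6, or AF17, another fusion partner of MLL, had 28.8 in EVI1+18 and 76.0 in EVI1-WT, which is 2.64-fold lower (2.41 to 2.91). Kmt2a, which encodes MLL itself, had 61.9 scaled CPM in EVI1+18 and 71.7 in EVI1-WT. Its cofactor menin, Men1, had 69.1 in EVI1+18 and 93.8 in EVI1-WT. Aff4, of the elongation complexes, had 113 in EVI1+18 and 183 in EVI1-WT, the highest scaled CPM of the list in a library. The homeobox genes Cdx1, Cdx2 and Cdx4, which activate HOX genes in the embryo and in some leukaemias, were silent in both libraries.

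All 18 Polycomb genes, whose products keep HOX clusters repressed, were tested and none was called apart, beside 10.1% of all tested genes. The median log2 ratio of the list was 0.07, with a range from -0.37 to 1.0. Suz12, a core subunit of the methyltransferase complex, had the highest scaled CPM of the list, at 183 in EVI1+18 and 154 in EVI1-WT. The catalytic subunit Ezh2 had 94.5 in EVI1+18 and 78.1 in EVI1-WT. The largest ratio was that of Phc1, a subunit of the ubiquitin ligase complex, at 2.01 (1.69 to 2.39), with 19.9 scaled CPM in EVI1+18 and 9.89 in EVI1-WT.

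Genes reported downstream of HOXA9 or MEIS1 did not share 1 direction. Of 18, 15 were tested, of which 4 were 2-fold higher in EVI1+18, 1 lower and 10 neither. Among all tested genes, 5.05% were called higher and 5.10% lower. The median log2 ratio of the list was 0.28. Mef2c, a transcription factor raised in leukaemias with rearranged MLL, had 42.3 scaled CPM in EVI1+18 and 1.10 in EVI1-WT, a ratio of 38.5 (25.3 to 61.8). Pf4, a platelet chemokine whose promoter binds MEIS1 and PBX proteins, had 347 in EVI1+18 and 4.94 in EVI1-WT, a ratio of 70.2 (57.6 to 86.5), and also belongs to the megakaryocyte list above. Igf1, a growth factor, had 17.4 in EVI1+18 and 2.30 in EVI1-WT, a ratio of 7.59 (5.58 to 10.5). Lmo2, a bridge of blood transcription factor complexes, had 159 in EVI1+18 and 47.1 in EVI1-WT, a ratio of 3.38 (3.14 to 3.63).

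Hif1a, the hypoxia factor reported as a MEIS1 target in stem cells, was the gene called lower, with 123 scaled CPM in EVI1+18 and 267 in EVI1-WT, or 2.17-fold lower (2.07 to 2.27). Cdk6, a cell cycle kinase with the highest scaled CPM of the list, had 519 in EVI1+18 and 304 in EVI1-WT, a ratio of 1.71 (1.66 to 1.76). Myb and Sox4, regulators of progenitor growth, were not called, with ratios of 0.818 (0.783 to 0.855) and 0.584 (0.535 to 0.638). Trib2, a leukaemogenic pseudokinase reported as a MEIS1 target, had 0 counts in both libraries.

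Of 17 homeobox genes of other classes, chosen as homeobox genes of blood cells, 14 were tested. Because of that choice, this share cannot be set against the 0 tested among all 39 HOX genes. Among the 14, 2 were 2-fold higher, 2 lower and 10 neither, with a median log2 ratio of -0.16. The shares over all tested genes were 5.05% higher and 5.10% lower. Satb1, a chromatin organiser of lymphoid and progenitor cells, had 3.31 scaled CPM in EVI1+18 and 21.6 in EVI1-WT, or 6.52-fold lower (5.06 to 8.50). Zfhx3 was 4.62-fold higher (2.91 to 7.68), with 5.08 in EVI1+18 and 1.10 in EVI1-WT. Pou2f2, a regulator best known in B cells, was 4.87-fold higher (2.72 to 9.34), with 3.40 in EVI1+18 and 0.699 in EVI1-WT. Cux1, with the highest scaled CPM of the list, had 206 in EVI1+18 and 187 in EVI1-WT.

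**Figure D3:**
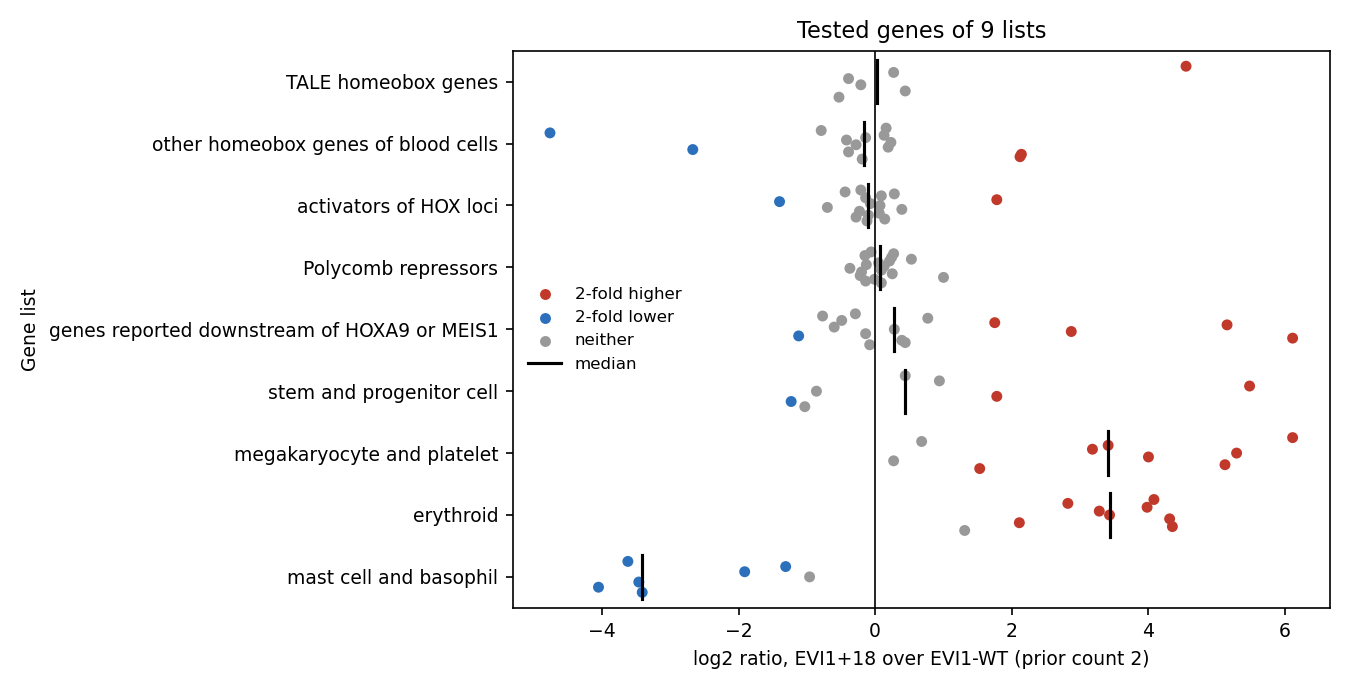
log2 ratio of EVI1+18 over EVI1-WT for every tested gene of 9 lists (rows), with a prior count of 2, red for 2-fold higher, blue for 2-fold lower and grey for neither; black bars are list medians. The median of the Polycomb genes is 0.07, with single genes from -0.37 to 1.0. The medians are 3.43 for erythroid, 3.41 for megakaryocyte and platelet, and -3.41 for mast cell and basophil markers.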

How the data were processed

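RNA was sequenced from 2 libraries, 1 per vector, so no replicate spread could be estimated. The authors deposited 1 table of whole-number read counts per gene, not normalized. The submitters' processing notes name HISAT2 2.2.1, SAMtools, Subread, featureCounts, edgeR and GRCm38. Their order and settings, the annotation release, and the handling of strand and of reads with several alignments are not stated in the sources used here, so counts of overlapping or antisense genes are uncertain. Both columns were matched to their samples by the vector's name, which left 0 columns of other samples.

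Gene symbols, coordinates and exon lengths came from GENCODE M21 on GRCm38, which holds 55227 of the 55487 gene IDs. The unmatched IDs took 0.0171% of counts in EVI1+18 and 0.0126% in EVI1-WT. Libraries were scaled by TMM in edgeR 4.0.16 (R 4.3.3), with upper quartile, total counts and DESeq2 1.42.0 size factors as alternatives. Ratios and intervals were computed with scipy 1.17.1 in Python 3.11.15. The code was tried on simulated counts with counting error only, which cannot show how the calls fare with variation between cultures. The 13183 genes that reached 1 scaled CPM in either library counted as tested. Without molecular identifiers, reads do not stand for independent molecules, so 95% intervals and the limit of 3 counts cover counting error only. Levels per length used the union of exons. Promoter sequences are those of RefSeq on GRCm38.p6, listed for 7 of the 9 factors.

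The 9 factors and the 18 gene lists (8 of pathways and families, 10 of cell type markers) were chosen with earlier results of these data known. Named were the 9 factors, and from each other list the genes called 2-fold apart and the one with the highest scaled CPM. All HOX and TALE genes with more than 3 counts were named, as were the 3 genes nearest to Meis1 in log2 ratio at a mean level within 2-fold. Other genes, among them neighbours and overlapping genes of the loci, HOX and TALE genes with 1 to 3 counts, Kmt2a, Men1, the Cdx genes, Ezh2, Phc1, Myb, Sox4 and Trib2, were named after their values were seen. Some genes that the rule would name are not reported here.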

Additional observations from a re-analysis of the deposited data

How the results depend on the processing

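Each of the 9 alternative scalings, filters and thresholds left 1 of the 9 factors called higher in EVI1+18 and 0 lower. The Meis1 interval starts at 13.8 and the other tested ratios lay between 0.763 and 1.36, so these alternatives could hardly have changed the calls. Both other limits of silence left 5 silent, which could not have come out otherwise. These 5 had 0 counts in both libraries, and each of the other factors passed 1 scaled CPM in a library. The 16 ratios recomputed with other scalings stayed within the intervals given, with Meis1 between 30.6 and 32.0, although the Pbx3 interval included equality with total counts. The scalings moved the median log2 ratio of all tested genes to at most 0.08. The number of genes called higher, 666, was 431 with at least 5 scaled CPM, 1093 and 401 with intervals beyond 1.5-fold and 3-fold, and 1037 by the ratio alone. The number called lower, 672, was 468 with at least 5 scaled CPM, 1290 and 344 beyond 1.5-fold and 3-fold, and 1105 by the ratio alone. These differ by construction, since fewer genes or other bounds are counted. With the longest transcript as gene length, the scaled RPKM in EVI1+18 was 1.22 for Meis1, 20.5 for Pbx2, 2.04 for Pbx3 and 8.59 for Pknox1. In EVI1-WT it was 17.0 for Pbx2, 2.67 for Pbx3 and 6.32 for Pknox1. No paired analysis was possible because each vector has 1 library, and for the same reason no library could be left out. At this depth, 3 counts correspond to 0.140 scaled CPM in EVI1+18 and 0.150 in EVI1-WT, and lower levels of HOX transcripts could not be detected.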

Other observations

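The list of markers for mast cells and basophils has 8 genes, of which 6 were called lower and 0 higher, with summed levels of 423 scaled CPM in EVI1+18 and 4605 in EVI1-WT. Of 4 eosinophil markers, 4 were called lower, with 148 in EVI1+18 and 848 in EVI1-WT. Of 8 neutrophil markers, 5 were called lower and 0 higher, with 1557 in EVI1+18 and 3385 in EVI1-WT. Of 8 monocyte and macrophage markers, 3 were called higher and 1 lower, with 511 in EVI1+18 and 569 in EVI1-WT. The 4 B lymphocyte markers were silent in both libraries. Of 4 T lymphocyte markers, 1 was tested and not called, and 0 of 5 endothelial and stromal markers were tested. Over all tested genes, 5.05% were called higher in EVI1+18 and 5.10% lower.

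Beside Pbx3, the neighbouring gene Mvb12b, an ESCRT subunit 284 kb away, had 101 scaled CPM in EVI1+18 and 34.5 in EVI1-WT, a ratio of 2.91 (2.67 to 3.18). On the other side, Mapkap1, a subunit of the mTORC2 kinase complex 33.6 kb away, had 54.3 in EVI1+18 and 53.1 in EVI1-WT.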
